A study of Homo sapiens with 6 samples.

Results

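The proteasome genes were taken as every gene symbol made of PSM, a letter from A to G and a number. The rule found 48 genes among the 37887 gene symbols of the count table, and used no measured value. Of these, 46 had enough counts to be tested. PSMA8, an alpha subunit of the testis, had no count in any library, and PSMB11, the catalytic subunit of the thymus, had 2 counts in 1 shCTL library and none elsewhere. The genes encode the alpha and beta rings of the 20S core, the ATPase and non-ATPase subunits of the 19S cap with 3 of its assembly chaperones (PSMD5, PSMD9 and PSMD10), the PSME activators, the inhibitor PSMF1 and the PSMG assembly chaperones. A further 38 symbols that begin with PSM (pseudogenes, antisense RNAs and PSMC3IP) do not follow the rule and are given separately.

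The libraries were made from BT-549, an established triple-negative breast cancer (TNBC) cell line. By the series design it carried a tetracycline-inducible shRNA against PBRM1, the chromatin-targeting subunit of the PBAF remodeling complex. The study asked how PBRM1 affects the expression of interferon pathway genes. There were 3 shCTL libraries, titled as control shRNA and labelled as treated with DMSO (0.1% in the series design), and 3 shPBRM1 libraries, labelled as treated with doxycycline (500 ng/ml). The design describes 1 line with the inducible PBRM1 shRNA for both treatments, while the titles name a control shRNA. For chromatin assays, the paper names cells with a control shRNA and, separately, cells in which an shRNA targets PBRM1. Which of these designs applies to the libraries is not settled by the sources. Doxycycline and the loss of PBRM1 cannot be told apart as sources of a difference. If the groups were separately made lines, differences between the lines cannot be told apart from the loss of PBRM1 either. The sources describe triplicate cultures without saying how separate they were, so p-values measure only the spread between these libraries. Total counts were 36429395, 47996676 and 49784336 in shCTL replicates 1 to 3, and 60221790, 40035400 and 65096297 in shPBRM1 replicates 1 to 3. Levels are given in CPM, which are counts scaled to a common library size with edgeR's TMM factors. A floor of 3 counts was between 0.0461 and 0.0824 CPM by total counts, and covers counting error only. Between 61.6 and 62.7% of the counts from 1 to 10 were even numbers, so counts cannot be read as independent molecules.

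PBRM1 had raw counts of 5870, 7619 and 8118 in shCTL replicates 1 to 3, against 2598, 1591 and 2657 for shPBRM1. Its log2 fold change was -1.91 (adjusted p = 9.98e-23), the direction that the labels call for. The receptors ESR1 and PGR were at 0.322 CPM or less in every library, as the triple-negative label requires, whereas ERBB2 was between 49.6 and 52.4 CPM. The 3 mesenchymal markers were all above 200 CPM in every library, but each differed between the groups. VIM (log2 fold change 0.31) and CDH2 (0.54) were higher in shPBRM1 and FN1 was lower (-1.33). Of the 5 epithelial markers, EPCAM and KRT19 were at 0.476 CPM or less. KRT8 was between 2.41 and 3.003 CPM in shCTL and between 23.4 and 24.7 CPM in shPBRM1 (log2 fold change 3.08), KRT18 between 4.14 and 4.77 CPM and between 48.3 and 56.3 CPM (3.51), and CDH1 was lower in shPBRM1 (-1.73). The part of these marker changes in the results that follow was not tested. The 7 immune cell markers (PTPRC, CD3E, CD14, ITGAM, LYZ, NKG7 and MS4A1) were counted because leukocytes express immunoproteasome genes constitutively. Their summed level was 0.938, 1.34 and 1.27 CPM in shCTL and 0.816, 0.951 and 0.863 CPM in shPBRM1. CD3E and MS4A1 were at 0 in every library. CD14, the most abundant of the 7 over the 6 libraries, was at most 0.745 CPM and higher in shPBRM1 (adjusted p = 0.016). PTPRC, the most abundant in shCTL, was at 0.697, 0.823 and 0.872 CPM there and at 0.200, 0.103 and 0.0941 CPM in shPBRM1 (log2 fold change -2.55, adjusted p = 6.35e-06). The mitochondrial ribosomal RNA MT-RNR2 set shPBRM1 replicates 2 and 3 apart, at 1394 and 2136 CPM against 7.36 CPM in replicate 1 and between 2.89 and 99.8 CPM in shCTL. The counts of genes called over the whole table, over the proteasome genes and over each list of related genes were therefore also made without each library in turn. In bulk RNA, fewer cells of a type and less RNA per cell cannot be told apart.

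The proteasome degrades proteins tagged with ubiquitin. Its 20S core is a stack of alpha and beta rings, and cleavage is carried out by the beta subunits PSMB5 (chymotrypsin-like), PSMB6 (caspase-like) and PSMB7 (trypsin-like). Interferons, acting through transcription factors such as IRF1, induce PSMB8, PSMB9 and PSMB10, which take the places of PSMB5, PSMB6 and PSMB7 in newly assembled particles and form the immunoproteasome. Interferon also induces PSME1 and PSME2, which form the PA28 cap, and the peptides made in this way are carried to MHC class I by the transporter TAP1-TAP2. The bulk of the remaining subunit genes is controlled by NFE2L1 (NRF1), which binds antioxidant response elements.

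The 5 interferon-inducible genes and most of the other proteasome genes went in opposite directions. PSMB8, PSMB9, PSMB10, PSME1 and PSME2 were all lower in shPBRM1, with a median log2 fold change of -1.75. Among the other 41 tested genes, 31 were higher, 3 were lower and 7 did not pass the test, with a median of 0.33. Over all 15450 tested genes the median was -0.0080. Counted at an adjusted p under 0.05 by edgeR's quasi-likelihood test, 8 of the 46 proteasome genes were lower and 31 were higher, where 33.2% and 31.5% of all tested genes were lower and higher. At a fold change over 2 as well, 3 were lower (PSMB8, PSMB9 and PSMB10), against a background of 9.68%. On the higher side, for which the background was 2.87%, no proteasome gene passed that fold change by edgeR or by DESeq2, and the largest rise was a log2 fold change of 0.71 for PSMB6. The groups did not overlap for 9 lower and 31 higher genes, where 35% and 33.3% of all tested genes did not overlap in these directions.

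**Figure D1:**
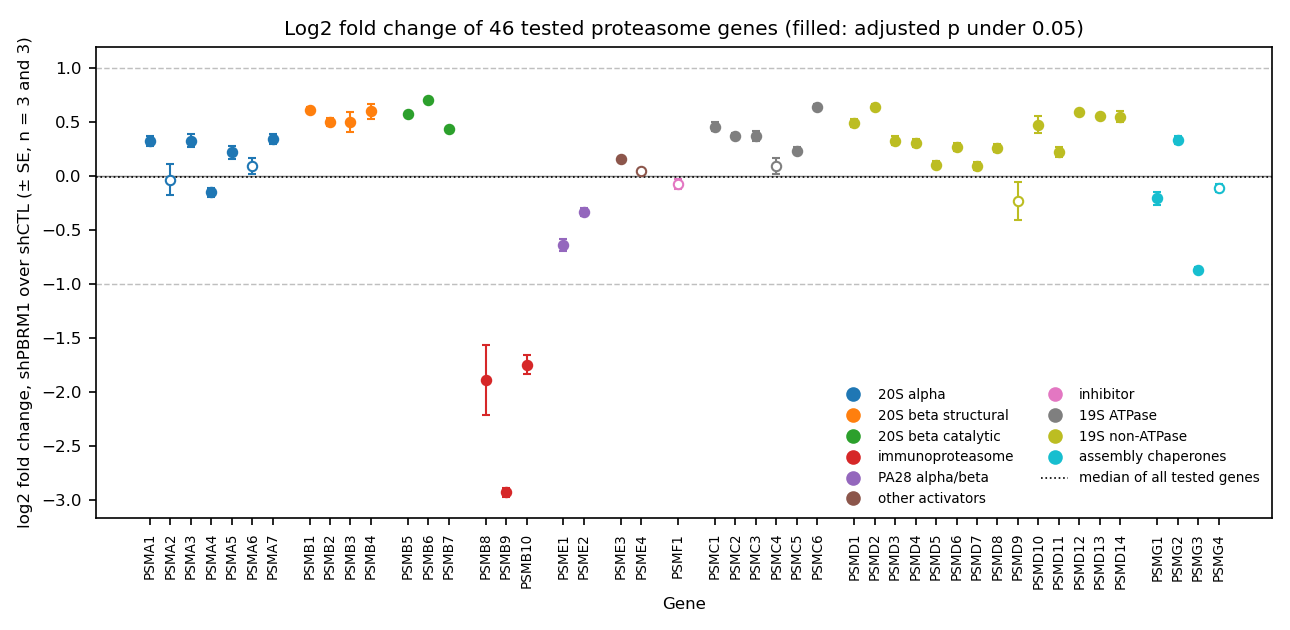
Log2 fold change (shPBRM1 over shCTL, vertical axis) of the 46 tested proteasome genes along the horizontal axis, colored by role, with bars for the SE between replicates (n = 3 and 3), filled points for an adjusted p under 0.05, dashed lines at a fold change of 2 and a dotted line at the median of all tested genes. PSMB8, PSMB9 and PSMB10 lie between -2.93 and -1.75, while the constitutive beta subunits lie between 0.43 and 0.71.

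Promoter sequence was read for the members from the RefSeq promoter windows of GRCh38.p14, which run from 250 bases before to 50 bases after each annotated start. Of the 48 genes, 42 had a window. The IRF site, the core to which IRF proteins bind, was searched on both strands as the letters GAAA followed, after any 2 bases, by GAAA again. It was found in 4 of the 5 interferon-inducible genes (PSMB8, PSMB10, PSME1 and PSME2) and in 3 of the other 37 (PSMG4, PSMB4 and PSMA4). Of all 35116 windows, 3.57% held a match, and 4.38% of all 27305 genes had a match in any window. The stretches that hold the matches are printed from 80 bases before to 20 bases after the start, 5′ to 3′ along the gene, with the match in capitals, since 4 of these genes fell and the match lies near the start in each. PSMG4 is shown as a proteasome gene with a match whose change did not pass the test, PSMB4 as one with a match that rose, and PSMB5, the constitutive partner of PSMB8, as one without them. PSMB8, PSMB5 and TAP1 each have a further annotated start, whose stretch had no match and is not printed. The match of PSMA4, which began at base -240 from its start, lies outside this stretch. PSMB9 had no match in its own window, and for it the neighboring TAP1 stretch is shown.
PSMB8 (chr6:32844028-32844127, minus strand): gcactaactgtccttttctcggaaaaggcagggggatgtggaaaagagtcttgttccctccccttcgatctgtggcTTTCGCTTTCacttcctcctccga
PSMB10 (chr16:67936831-67936930, minus strand): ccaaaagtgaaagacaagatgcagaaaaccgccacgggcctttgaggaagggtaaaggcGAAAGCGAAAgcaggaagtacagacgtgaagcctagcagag
PSME1 (chr14:24136114-24136213, plus strand): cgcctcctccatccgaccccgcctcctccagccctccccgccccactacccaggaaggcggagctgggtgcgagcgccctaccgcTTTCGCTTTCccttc
PSME2 (chr14:24146591-24146690, minus strand): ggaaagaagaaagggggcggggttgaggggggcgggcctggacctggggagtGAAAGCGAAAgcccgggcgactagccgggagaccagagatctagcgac
PSMG4 (chr6:3258867-3258966, plus strand): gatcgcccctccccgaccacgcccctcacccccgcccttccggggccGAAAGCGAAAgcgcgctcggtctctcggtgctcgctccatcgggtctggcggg
PSMB4 (chr1:151399493-151399592, plus strand): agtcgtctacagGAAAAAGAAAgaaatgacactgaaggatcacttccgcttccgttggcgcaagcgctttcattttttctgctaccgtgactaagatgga
PSMB5 (chr14:23034881-23034980, minus strand): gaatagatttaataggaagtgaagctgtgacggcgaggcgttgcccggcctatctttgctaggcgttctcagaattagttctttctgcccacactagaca
TAP1 (chr6:32853785-32853884, minus strand, from 180 to 81 bases before its start): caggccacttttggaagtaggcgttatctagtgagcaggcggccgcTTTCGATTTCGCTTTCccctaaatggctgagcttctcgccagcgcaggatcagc

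PSMB8, PSMB10, PSME1, PSME2 and PSMG4 share the same 10 letters, read on one strand or the other, and PSMB4 differs from them in the 2 bases between the repeats. The match began 4 bases before the start in PSMB8, 21 before it in PSMB10, 28 before it in PSME2, 33 before it in PSMG4 and 68 before it in PSMB4, and at base 6 after it in PSME1. From their RefSeq starts, which are 488 bases apart, TAP1 and PSMB9 are transcribed away from each other, and the 2 overlapping matches of TAP1 lie between them, ending 354 bases before the PSMB9 start. Other elements were searched in the same windows and on both strands. TTCNNNGAA, the GAS element of interferon signaling, was in 1 of the 5 and 7 of the other 37 genes, and in 9.38% of all genes. TGACNNNGC, the antioxidant response element of NFE2L1 and NFE2L2, was in 3 of the 5 and 12 of the other 37 genes, against 16.1% of all genes. A match describes these letters only, and binding was not measured in these files.

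**Figure D2:**
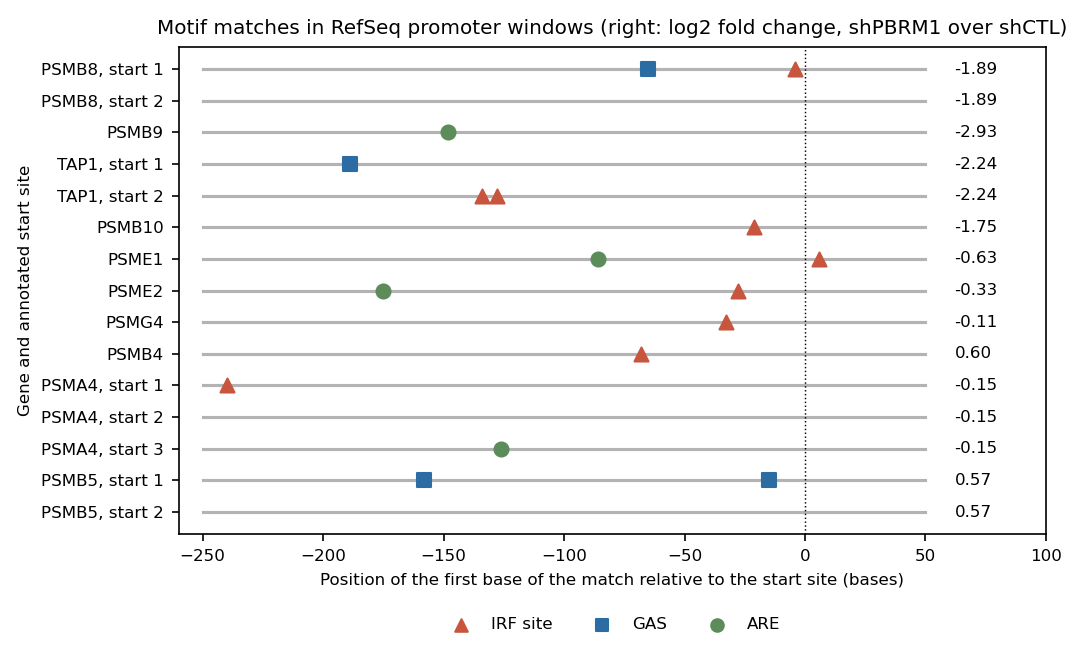
Position of the first base of each IRF site (triangles), GAS (squares) and ARE (circles) match relative to the start (horizontal axis, bases) in the RefSeq promoter windows of 10 genes (vertical axis, starts numbered by coordinate), with each gene's log2 fold change at the right. IRF site matches lie within 33 bases of a start in PSMB8, PSMB10, PSME1, PSME2 and PSMG4, with log2 fold changes from -1.89 to -0.11. They lie farther from it in TAP1 (-2.24), PSMB4 (0.60) and PSMA4 (-0.15).

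Among the catalytic subunits of the immunoproteasome, PSMB9 (LMP2) fell the most. It was at 26.6, 27.1 and 28.0 CPM in shCTL and 3.50, 3.44 and 3.73 CPM in shPBRM1. The shPBRM1 mean was 13.1% of the shCTL mean, and the log2 fold change was -2.93 ± 0.041 (SE, n = 3 and 3, adjusted p = 1.79e-19). The replicates of each group lay close together, and the groups were far apart. By GENCODE v29 (GRCh38), PSMB9 extends over bases 32844136 to 32859585 of chromosome 6, inside the MHC. TAP1, at 32845209 to 32853978 on the other strand, lies within that span.

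PSMB8 (LMP7) was at 50.9, 25.4 and 48.7 CPM in shCTL and 11.4, 11.1 and 11.2 CPM in shPBRM1. Replicate 2 of shCTL was at about the midpoint between its own group's other libraries and shPBRM1 on a log scale, and the groups still did not overlap. The log2 fold change was -1.89 ± 0.32 (SE, adjusted p = 2.50e-10), and -2.15 without that library. The SE is from PSMB8 alone, whereas edgeR's test also draws on the spread of the other genes. The p is therefore not a measure of the wide spread of PSMB8 in shCTL. PSMB8 lies on chromosome 6 from 32840717 to 32844703. The antisense gene PSMB8-AS1 and PSMB9 cover 20.6% of its exon bases on the other strand, and PSMB8-AS1 itself had at most 6 counts in any library. PSMB10 (MECL-1), on chromosome 16 from 67934502 to 67937087, was at 7.85, 9.09 and 7.61 CPM in shCTL and 2.57, 2.31 and 2.42 CPM in shPBRM1. All shPBRM1 libraries were below all shCTL libraries, with a log2 fold change of -1.75 ± 0.089 (SE, adjusted p = 4.77e-12). A gene on the same strand, AC040162.1, shares 34.8% of the exon bases of PSMB10, so reads there may have been split or dropped and its level is uncertain.

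The PA28 genes fell less. PSME1 (PA28 alpha), on chromosome 14 from 24136158 to 24138967, was at 187, 199.5 and 197 CPM in shCTL and 117, 129.7 and 129.8 CPM in shPBRM1. Its log2 fold change was -0.63 ± 0.058 (SE, adjusted p = 4.53e-12), which left 64.4% of the shCTL mean. PSME2 (PA28 beta), on chromosome 14 from 24143362 to 24147570, was at 137, 146 and 142 CPM in shCTL and 109, 114 and 116 CPM in shPBRM1. It fell by 0.33 on the log2 scale (SE 0.038, adjusted p = 4.03e-08), and the lowest shCTL library was above the highest shPBRM1 library for both genes. PSME3 (PA28 gamma), the nuclear relative that interferon does not induce, was at 116, 113 and 114 CPM in shCTL and 127, 129.7 and 128 CPM in shPBRM1. It was higher by 0.16 ± 0.014 on the log2 scale (SE, adjusted p = 1.42e-04). PSME4 (PA200), another cap protein, had a log2 fold change of 0.045 that did not pass the test (adjusted p = 0.234).

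**Figure D3:**
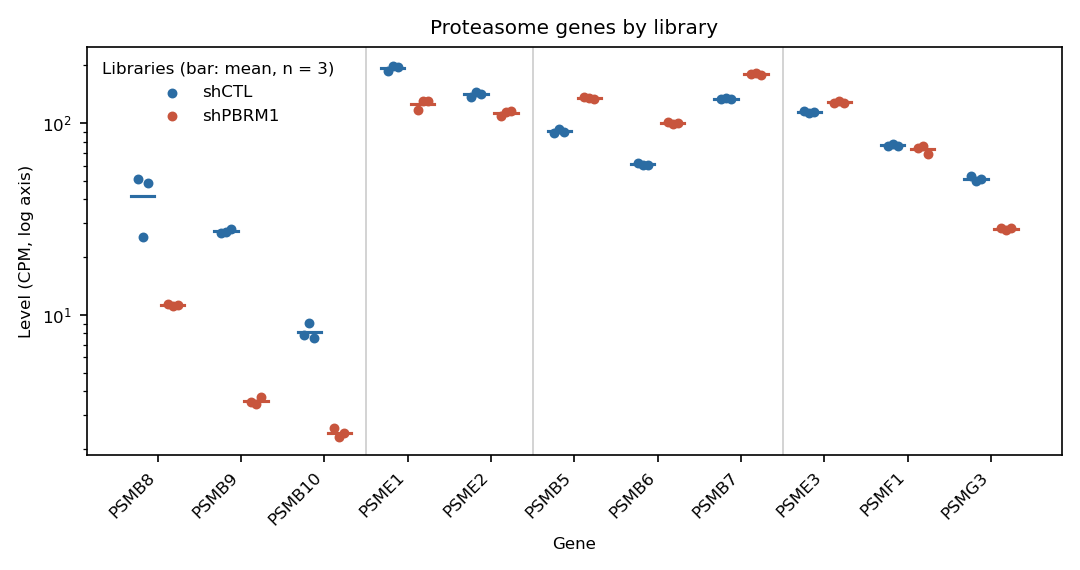
Level of 11 proteasome genes (horizontal axis) in each library, in CPM on a log axis, with points for the 3 shCTL and 3 shPBRM1 libraries and bars for their means. PSMB8, PSMB9 and PSMB10 drop below every shCTL library, with 1 shCTL library of PSMB8 at 25.4 CPM against 48.7 and 50.9, while PSMB5, PSMB6 and PSMB7 lie higher in every shPBRM1 library.

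The 3 constitutive catalytic subunits rose. PSMB5 was at 89.1, 93.5 and 90.1 CPM in shCTL and 136, 135 and 134 CPM in shPBRM1, a log2 fold change of 0.57 ± 0.022 (SE, adjusted p = 5.35e-13). PSMB6 was at 62.2, 60.2 and 60.8 CPM in shCTL and 101, 98.4 and 99.9 CPM in shPBRM1. Its log2 fold change of 0.71 ± 0.019 (SE, adjusted p = 1.61e-14) was the largest rise of the 46 tested proteasome genes. PSMB7 was at 133, 134 and 134 CPM in shCTL and 181, 183 and 178 CPM in shPBRM1, a log2 fold change of 0.43 ± 0.013 (SE, adjusted p = 1.05e-10). In each of the 3 genes the groups were separated by many times the spread between replicates. Together the 3 genes went from 286 ± 2.03 to 416 ± 3.48 CPM (SD, n = 3), while PSMB8, PSMB9 and PSMB10 together went from 77.1 ± 13.4 to 17.2 ± 0.315 CPM.

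Each inducible subunit was then compared with the constitutive subunit of the same place within a library, which needs no scaling between libraries. The log2 ratio of PSMB9 to PSMB6 counts was -1.22, -1.15 and -1.12 in shCTL and -4.84, -4.82 and -4.73 in shPBRM1. The difference of -3.63 was a 12.4-fold fall of the ratio. For PSMB8 to PSMB5 the log2 ratios were -0.81, -1.88 and -0.89 in shCTL and -3.58, -3.60 and -3.58 in shPBRM1, a difference of -2.39 (-2.74 without shCTL replicate 2). For PSMB10 to PSMB7 they were -4.08, -3.88 and -4.13 in shCTL and -6.13, -6.28 and -6.18 in shPBRM1, a difference of -2.17. With PSME3 as the reference, PSME1 differed by -0.80 and PSME2 by -0.49. In all 5 pairs every shPBRM1 library was below every shCTL library. Permuting the libraries exactly and two-sided, p was 0.1 for each of the 5 pairs (0.1 after Benjamini-Hochberg adjustment), which is the smallest p that 3 libraries against 3 allow, so this test could not pass 0.05.

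**Figure D4:**
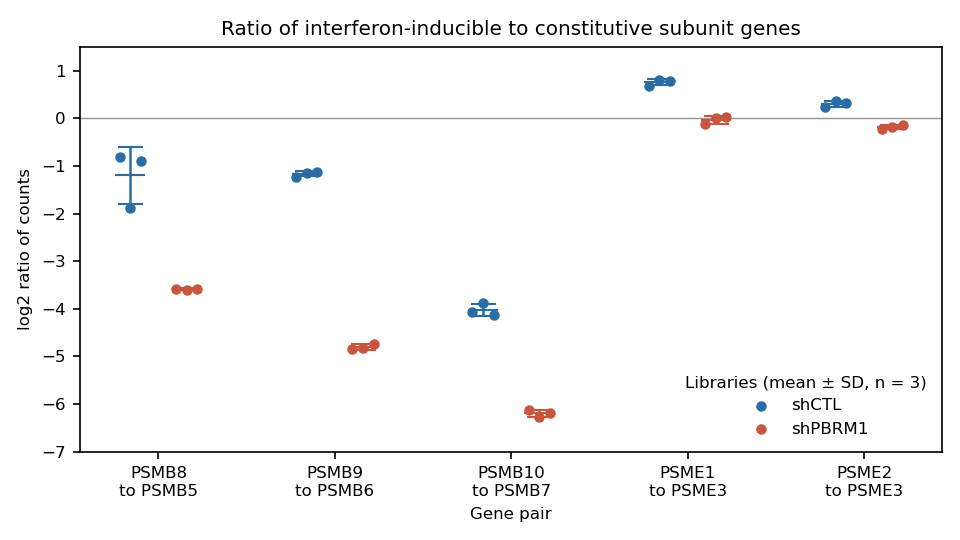
Log2 ratio of the counts of an interferon-inducible gene to a constitutive gene (vertical axis) for 5 pairs (horizontal axis), with points for the libraries and bars for the mean ± SD (n = 3). The groups are separate in every pair, with the widest gap, -3.63, for PSMB9 to PSMB6 and the narrowest, -0.49, for PSME2 to PSME3.

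Counts of different genes are comparable only after division by transcript length, for which the longest principal GENCODE transcript was used. On that scale, PSMB8 made up 33.9 ± 8.80% (SD, n = 3) of the summed PSMB8 and PSMB5 transcripts in shCTL and 8.72 ± 0.0856% in shPBRM1. PSMB9 made up 32.7 ± 0.818% of the PSMB9 and PSMB6 transcripts in shCTL and 3.74 ± 0.154% in shPBRM1. PSMB10 was a minor part of its pair with PSMB7 in both groups, at 4.69 ± 0.415% and 1.07 ± 0.0602%. That share is uncertain, since PSMB10 but not PSMB7 shares exon bases with a same-strand gene. The share of PSME1 in its sum with PSME3 was 62.8 ± 1.07% in shCTL and 49.2 ± 1.34% in shPBRM1. These are shares of RNA, and protein was not measured here.

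Most of the remaining PSMA, PSMB, PSMC and PSMD genes rose. Of the 31 tested besides PSMB5 to PSMB10, 26 were higher, 1 was lower and 4 did not pass the test, where 31.5% of all tested genes were higher and 33.2% lower. Their median log2 fold change was 0.33. Their summed level went from 2769 ± 56.5 to 3656 ± 47.5 CPM (SD, n = 3), or 1.32-fold. All 4 noncatalytic beta subunits were higher, between 0.50 and 0.61 on the log2 scale. PSMB1 was at 85.0, 89.5 and 86.2 CPM in shCTL and 132, 134 and 134 CPM in shPBRM1, a log2 fold change of 0.61 (adjusted p = 1.58e-13). PSMB4 was at 155, 180.0 and 161 CPM in shCTL and 245, 251 and 259 CPM in shPBRM1, a log2 fold change of 0.60 (adjusted p = 4.56e-11). For both, all shPBRM1 libraries were above all shCTL libraries. Of the 7 tested alpha subunits, which gate the core, 4 were higher, 1 was lower and 2 did not pass, beside the same shares of all genes. PSMA4 was the lower one, at 135, 139 and 142 CPM in shCTL and 122, 121 and 131 CPM in shPBRM1 (log2 fold change -0.15, adjusted p = 0.00143). PSMA2 (-0.033, adjusted p = 0.869) and PSMA6 (0.096, adjusted p = 0.269) did not pass.

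In the 19S cap, 5 of the 6 ATPases, which unfold the substrate, were higher, where 31.5% of all tested genes were. PSMC6 rose the most, from 57.2, 56.0 and 59.1 CPM to 88.4, 89.7 and 91.5 CPM, a log2 fold change of 0.65 (adjusted p = 2.42e-13). PSMC4, with a log2 fold change of 0.099, did not pass (adjusted p = 0.0636), and passed once the replicate number was fitted as a block (adjusted p = 0.0278). When a library was left out it ranged from 0.040 without shCTL replicate 1 to 0.14 without shCTL replicate 2, and it passed without the latter (adjusted p = 0.026) and without shPBRM1 replicate 2 (adjusted p = 0.0139). Of the 14 PSMD genes, 13 were higher, beside the same 31.5%. They encode scaffolds, ubiquitin receptors and lid subunits of the cap, and 3 of them (PSMD5, PSMD9 and PSMD10) chaperones that assist the assembly of its base. PSMD2, a scaffold of the base, was at 296, 298 and 294 CPM in shCTL and 482, 451 and 454 CPM in shPBRM1. Its log2 fold change was 0.64 (adjusted p = 2.05e-12). PSMD12, a subunit of the lid, was at 89.4, 89.6 and 92.4 CPM in shCTL and 139, 135 and 135 CPM in shPBRM1, a log2 fold change of 0.59 (adjusted p = 2.59e-13). PSMD9 was the exception, with a log2 fold change of -0.23 that did not pass (adjusted p = 0.142). Without 1 library in turn it ranged from -0.37 to -0.083, and it passed as lower without shCTL replicate 3 (adjusted p = 0.0221). PSMD7 (0.095, adjusted p = 0.0455) was the smallest rise that passed. That call was lost by DESeq2 (adjusted p = 0.0917), with library size only (0.336), with either other filter on low counts (0.0808 and 0.0605), and when any 1 of 4 libraries was left out, with a range from 0.067 without shCTL replicate 1 to 0.12. The rise of PSMD5 (0.11) did not pass without shCTL replicate 1 (adjusted p = 0.0785) or with library size only (0.061, adjusted p = 0.164).

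Among the inhibitor and the 4 PSMG assembly chaperones, 2 were lower, 1 was higher and 2 did not pass the test. In so few genes these counts are near the shares over all tested genes, of which 33.2% were lower and 31.5% higher. PSMF1 (PI31), named for inhibiting the 20S core in vitro, was at 75.9, 77.7 and 75.7 CPM in shCTL and 74.0, 75.8 and 68.8 CPM in shPBRM1. The groups overlapped, and the log2 fold change of -0.071 did not pass (adjusted p = 0.114). It ranged from -0.093 to -0.028 when a library was left out, and passed as lower without shPBRM1 replicate 2 (adjusted p = 0.0399). With library size only, PSMF1 also passed as lower (-0.12, adjusted p = 0.0106). The assembly chaperone PSMG3 had the largest fall outside the 5 interferon-inducible genes. It was at 53.0, 49.9 and 51.1 CPM in shCTL and 28.4, 27.8 and 28.2 CPM in shPBRM1, a log2 fold change of -0.86 ± 0.027 (SE, adjusted p = 2.01e-13). PSMG3-AS1, transcribed from the other strand beside PSMG3, also fell, by 0.98 on the log2 scale (adjusted p = 4.05e-07). The 2 genes share 3.06% of the PSMG3 exon bases. PSMG1 was lower by a smaller amount (-0.20, adjusted p = 0.00147), although PSMG2, its partner in 1 heterodimer, was higher (0.34, adjusted p = 1.56e-05). PSMG4, the partner of PSMG3, had a log2 fold change of -0.11 that did not pass (adjusted p = 0.13). With library size only, PSMG4 passed as lower (-0.16, adjusted p = 0.0387).

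Subunits that occupy 1 place each in the same ring differed in their level per kilobase of transcript. In shCTL, the 4 alpha subunits that share no exon bases with another gene on the same strand ranged from 30.7 CPM per kilobase (PSMA5) to 216 (PSMA7). The length used was that of the longest principal transcript, 3729 bases for PSMA5 and 996 for PSMA7. Before division by length, these 4 genes ranged from 89.7 CPM (PSMA3) to 215 CPM (PSMA7). The part of the choice of transcript in the differences per kilobase was not tested. PSMA1, PSMA2 and PSMA6, which share 24.7, 14.6 and 14.1% of their exon bases with a same-strand gene, were between 1.72 and 13.9 CPM per kilobase. The chaperone gene PSMD9, with 19.9% of its exon bases shared, was the lowest of the PSMD genes, at 1.68 CPM per kilobase. The part of shared exons in these low levels was not tested. PSMC1 shares 75.8% of its exon bases with NRDE2 on the other strand, and whether counting used the strand is not given in the sources used here.

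Among the other symbols that begin with PSM, 8 of 38 were tested. PSMG3-AS1 was lower, and the pseudogenes PSMC1P1 (log2 fold change 0.66, adjusted p = 0.00282) and PSMD10P1 (0.72, adjusted p = 0.0249) were higher. The 32 pseudogenes together held 6.24, 5.72 and 6.31 CPM in shCTL and 7.96, 6.84 and 7.37 CPM in shPBRM1, and reads that match a pseudogene as well as its parent gene may have been counted for neither. PSME2P2, the pseudogene with the most counts, was at 1.95 to 2.68 CPM and did not pass the test.

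Genes that act with the proteasome without a PSM symbol were counted in the same fit. Of 8 partners, 5 were higher and 2 were lower, with a median log2 fold change of 0.17, where 31.5% of all tested genes were higher and 33.2% lower. POMP, the chaperone that joins the rings of the 20S core, was at 97.7, 97.8 and 95.1 CPM in shCTL and 144, 134 and 155 CPM in shPBRM1 (log2 fold change 0.58, adjusted p = 2.68e-11). The deubiquitinase USP14 (0.40) and the lid subunit SEM1 (0.39) also rose, whereas AKIRIN2, which brings proteasomes into the nucleus, fell by 0.46. The calls of ADRM1 (0.11, adjusted p = 0.0487) and UCHL5 (-0.093, adjusted p = 0.0239) were lost with DESeq2 (adjusted p = 0.0887 and 0.0858) and in several of the fits without a library. ADRM1 was then at its lowest without shCTL replicate 1 (0.062, adjusted p = 0.302) and UCHL5 nearest to 0 without shCTL replicate 3 (-0.066, adjusted p = 0.149). Of the 7 ubiquitin genes and shuttle factors counted, 5 were higher and 1 was lower, beside the same shares of all genes (31.5% and 33.2%). The unfoldase VCP (0.58), the ubiquitin genes UBB (0.54) and RPS27A (0.51) and the shuttle factor UBQLN4 (0.17) had the largest changes.

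The transcription factors known to raise proteasome subunit genes did not rise with them. NFE2L1 was at 727, 729 and 723 CPM in shCTL and 585, 611 and 565 CPM in shPBRM1, a log2 fold change of -0.31 (adjusted p = 3.11e-07). NFE2L2 (NRF2) fell by 0.81 and DDI2, the protease that activates NFE2L1, by 0.32, while NGLY1, which removes sugars from NFE2L1, was higher by 0.20. Of these 4 genes 3 were thus lower and 1 higher, where 33.2% and 31.5% of all tested genes were. DDI2 and NFE2L2 share 15.3 and 17.6% of their exon bases with a same-strand gene. The groups did not overlap in any of the 4, beside 35% of all tested genes on the lower side and 33.3% on the higher side. RNA levels do not report the processing of NFE2L1 protein.

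The 4 known inducers of immunoproteasome genes that were counted were lower. IRF1 was at 113, 114 and 113 CPM in shCTL and 38.3, 38.5 and 35.5 CPM in shPBRM1, a log2 fold change of -1.60 (adjusted p = 2.83e-20). NLRC5, the transactivator of MHC class I genes, had the largest fall of the 4, with -3.76 (adjusted p = 3.47e-20). STAT2 (-2.36) and IRF9 (-1.88) make up the list. IRF9 shares 48.4% of its exon bases with AL136295.5 on the same strand, so its level is uncertain in the way of PSMB10. All 4 are among the 9.68% of genes lower at a fold change over 2.

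Of the 8 genes that load peptides after the proteasome, 6 were lower, 5 of them at a fold change over 2, where 33.2% and 9.68% of all tested genes were. TAP1, the neighbor of PSMB9, was at 133, 138 and 133 CPM in shCTL and 28.8, 30.3 and 26.9 CPM in shPBRM1, a log2 fold change of -2.24 (adjusted p = 1.52e-22). The aminopeptidase ERAP2 (-1.63), the MHC class I light chain B2M (-1.36) and the transporter subunit TAP2 (-1.09) had the next largest falls. TAP2 shares 32.3% of its exon bases with AL669918.1 on the same strand, so its level is uncertain as well. The peptide loading chaperone CALR had a log2 fold change of 0.064 (adjusted p = 0.19). It ranged from 0.022 to 0.13 when a library was left out, and passed as higher without shPBRM1 replicate 1 (adjusted p = 0.0158). TAPBP (tapasin) ranged from 15.5 to 84.0 CPM within shCTL, and its log2 fold change of -0.89 did not pass (adjusted p = 0.056). It passed as lower in some other fits, and without shCTL replicate 3 it was at 0.32 (adjusted p = 0.342).

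**Figure D5:**
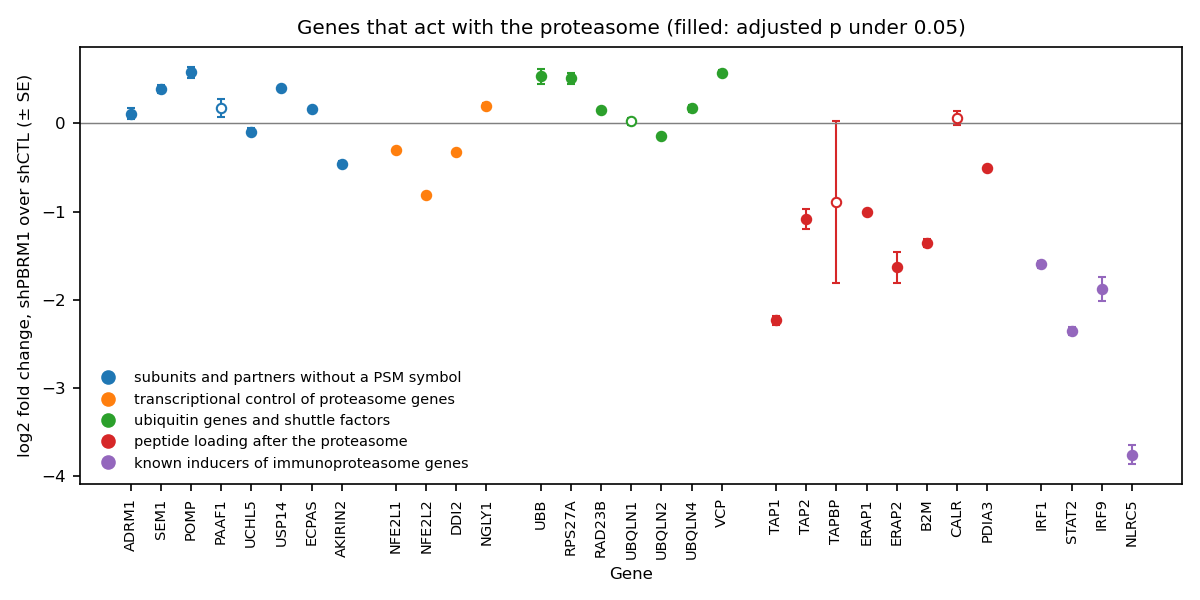
Log2 fold change (shPBRM1 over shCTL, vertical axis) of 31 genes that act with the proteasome (horizontal axis), colored by list, with bars for the SE between replicates (n = 3 and 3) and filled points for an adjusted p under 0.05. The inducers lie between -3.76 and -1.60, TAP1 at -2.24 and POMP at 0.58.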

How the data were processed

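RNA-seq of BT-549 cells was analyzed in 3 shCTL and 3 shPBRM1 libraries. Raw counts for each gene symbol, without normalization, were deposited by the authors. The submitters' processing notes name CASAVA 1.8.2, STAR 2.7.9a, featureCounts, DESeq2 1.24.0 and GRCh38.p7; the annotation and the strand setting are not given in the sources used here. The kit was stranded and selected poly(A) RNA.

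Groups and replicate numbers came from sample titles. The count columns of shCTL do not say control in their names. They were matched to the titles by the cell line, the absence of shPBRM1 and the last number. The middle number in these names is not explained. Counts were normalized by TMM and 15450 genes kept by filterByExpr were tested with edgeR 4.0.16 (R 4.3.3), using the quasi-likelihood F-test and adjusting p-values over all of them (Benjamini-Hochberg). SEs are from log2 CPM with 2 counts added. Ratios of counts were compared by exact permutation tests. The code was tested on simulated data. Positions and overlaps are from GENCODE v29, promoters from RefSeq (GRCh38.p14). Libraries of the same group differed beyond sampling noise (chi-square per degree of freedom 4.92 to 24.9). The proteasome genes, the lists and the tests were chosen with earlier results of these data known. Named in full are PSMB5 to PSMB10, PSME1 to PSME3 and PSMF1, then up to 5 other members with the largest rise and 5 with the largest fall that passed the test, and up to 4 genes a list besides IRF1, NLRC5, TAP1, POMP and NFE2L1. Other genes are named as members counted in small groups or as exceptions, after their values were seen. A few genes of these lists are not reported here.

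Libraries with the same replicate number, which is given in the titles, deviated together, with correlations of 0.734, 0.593 and 0.419 over 5622 genes, against -0.671 to 0.464 for other pairs. A second fit took this number as a block. Further alternatives were edgeR's RLE factors, library size only, DESeq2 1.42.0, no low-count filter, a filter at a mean of 50 counts, 0.5 counts added, and each library left out.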

Additional observations from a re-analysis of the deposited data

How the results depend on the processing

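The 5 interferon-inducible genes and PSMB5, PSMB6 and PSMB7 kept their direction and their call under all 6 other fits and without each of the 6 libraries. The number of lower proteasome genes with a fold change over 2 was 3 throughout and the number of higher ones 0. Without a fold minimum the lower genes numbered 8 to 9 and the higher genes 29 to 31 when a library was left out, and 10 and 29 with library size only. That scaling moved the median of all genes by -0.048. The calls that changed among the members were those of PSMC4, PSMD5, PSMD7, PSMD9, PSMF1 and PSMG4. With the replicate block, 32 members were higher, PSMC4 among them (adjusted p = 0.0278), and no other member changed its call. In the same blocked fit PAAF1 passed the test (0.17, adjusted p = 0.0235), as it did with RLE size factors, with no filter, and without shCTL replicate 3 or shPBRM1 replicate 2. With the replicate numbers paired, the exact sign-flip test of each of the 5 log2 ratios gave p = 0.25, the smallest that 3 pairs allow, with the differences unchanged.

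Over all genes, those lower and higher at a fold change over 2 numbered 941 and 270 when a mean of at least 50 counts was required, which tests fewer genes. With a library left out they ranged from 1485 to 1604 and from 441 to 493. Directions reversed only for log2 fold changes that did not pass the test. PSMA2 was at 0.081 without shCTL replicate 1 and 0.032 without shPBRM1 replicate 1 (range -0.14 to 0.081). With library size only, PSME4 was at -0.0032 and UBQLN1 at -0.025. TAPBP was at 0.32 without shCTL replicate 3. It passed as lower with library size only (adjusted p = 0.0266) and with no filter on low counts (7.16e-50). It also passed without shCTL replicate 1 (-1.26, adjusted p = 0.00314), shCTL replicate 2 (0.0128), shPBRM1 replicate 1 (0.0347) or shPBRM1 replicate 2 (0.0269). In these fits 7 of the 8 peptide loading genes were lower. The groups overlapped in TAPBP, so the very small value with no filter does not measure how far apart they were. TAPBP did not pass in the remaining fits, DESeq2 among them. For these, the cause was not tested. PSMA8 and PSMB11 were under the floor of 3 counts in every library, so no difference could be tested in them. PSMA2 and PSMD9 had few counts and did not pass the test, and the part of depth in this was not tested.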

Other observations

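PSMB8 varied more between the shCTL libraries than almost any gene of its level. Its SD of log2 CPM was 0.56, larger than in 99.9% of the 7178 genes with at least 20 CPM in shCTL, whose median SD was 0.044. The neighbor PSMB9 had an SD of 0.036 and TAP1 of 0.030. Only 5 genes had a larger SD, which were MT-RNR1, MT-RNR2, TAPBP, SNORD3C and SNORD3B-2. MBOAT7 (0.50), HLA-E (0.41), HLA-C (0.37) and SKIV2L (0.32) complete the 10 genes with the widest spread. PSMB8 was lowest in shCTL replicate 2, at 25.4 CPM, and TAPBP was highest in shCTL replicate 3, at 84.0 CPM against 15.5 and 19.1 CPM. These values were noticed after the data had been seen, and their source was not tested.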
